A study of Arabidopsis thaliana with 15 samples.

Results

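Mature guard cells were compared with the whole epidermis of Arabidopsis thaliana across all 20956 probe sets with deposited values. The platform was the ATH1 array, an Affymetrix expression array. The comparison took every array labelled with either population, 3 of mature guard cells and 3 of epidermis, which is 6 of the 15 arrays of the study. Mature guard cells carried the enhancer trap E1728::GFP, in which a GFP gene is driven by whatever enhancer lies near its insertion. Epidermal cells carried ML1p::YFP-RCI2A, a membrane YFP under the promoter of ML1, a gene of the outer cell layer. The other 9 arrays hold early, middle and late precursors of the same lineage, sorted with SPCHp::SPCH-YFP, MUTEp::nucGFP and FAMAp::GFP-FAMA. All lines were in the Col background, and all protoplasts came from aerial tissue of plants aged 14 days, grown at 25 °C on 1% sucrose with 16 hours of light and 8 hours of darkness, and digested for 2 hours. Each replicate held 2000 to 20000 sorted cells, per the labels.

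A stoma is a pore between a pair of guard cells, whose swelling and shrinking with the movement of potassium, anions and sugars opens and closes it. Guard cells arise from the epidermis through a lineage in which the basic helix-loop-helix (bHLH) factors SPCH, MUTE and FAMA act in turn, and FAMA ends division and sets guard cell fate. Unlike the pavement cells around them, which have few and small plastids, guard cells hold developed chloroplasts, though fewer and smaller ones than the mesophyll beneath. The ML1 reporter is described as marking the entire epidermis, so its sort can itself hold guard cells, and the comparison sets a cell type against the layer that contains it. Every sort used a different reporter line, so line and cell type cannot be told apart. In these bulk samples, fewer cells of a type and less RNA per cell cannot be told apart either.

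Values are log2 expression from RMA (robust multi-array average), so a difference of 1 is a 2-fold difference. Array medians ran from 2.52 to 2.68, and a gene whose mean in a group does not exceed 2.68 is called near background there. A fold against such a group is given as at least a value, in which each array of that group enters at the higher of its own value and its own array's median. With 2.68 as the floor in every array, a setting chosen after seeing the data, these bounds are 1.03 to 1.11 times smaller, and all stay above 1. A gene is called measured where the platform annotation lists a probe set to it alone, and 8136 probe sets have no gene listed there. Correlations between replicates were 0.959 to 0.971 in mature guard cells and 0.948 to 0.962 in epidermis. The residual SD was 0.34 and 0.38 in these groups and 0.66 in early precursors, which share the fit. Late precursor arrays 2 and 3 stood closer to each other (r = 0.994) than any other replicate pair. The labels do not say whether replicates came from separate cultures, so p-values measure the spread between these samples, which may be technical.

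In limma's fit of all 15 arrays, 820 probe sets (3.91% of those tested) differed between mature guard cells and epidermis at a Benjamini-Hochberg adjusted p under 0.05. They were 480 probe sets (2.29%) higher and 340 (1.62%) lower in mature guard cells. The higher ones differed more, with a median of 1.5 and a greatest value of 4.46, against a median of -1.0 and a lowest value of -2.88 for the lower ones. The median over all probe sets was -0.06. Differences over 4-fold were found at 111 higher and 24 lower probe sets. All 820 had the 3 arrays of one group above the 3 of the other, as did 29.8% of all probe sets. Of the 480 higher probe sets, 93 were near background in epidermis, and of the 340 lower ones, 140 were near background in mature guard cells. A gene is listed for 442 of the 820, 237 higher and 205 lower.

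The number of calls depended on the arrays in the fit. With only the 6 arrays of these groups, 533 were called, 383 higher and 150 lower, of which 364 were also called in the same direction in the fit of 15 arrays. Without mature array 1 the count was 309, without mature array 2 it was 346, without epidermis array 3 it was 313, and without late precursor array 2 it was 544. The split of higher against lower also moved with the scaling. After cyclic loess 323 probe sets were higher and 425 lower, 43.2% higher against 58.5% as deposited.

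**Figure D1:**
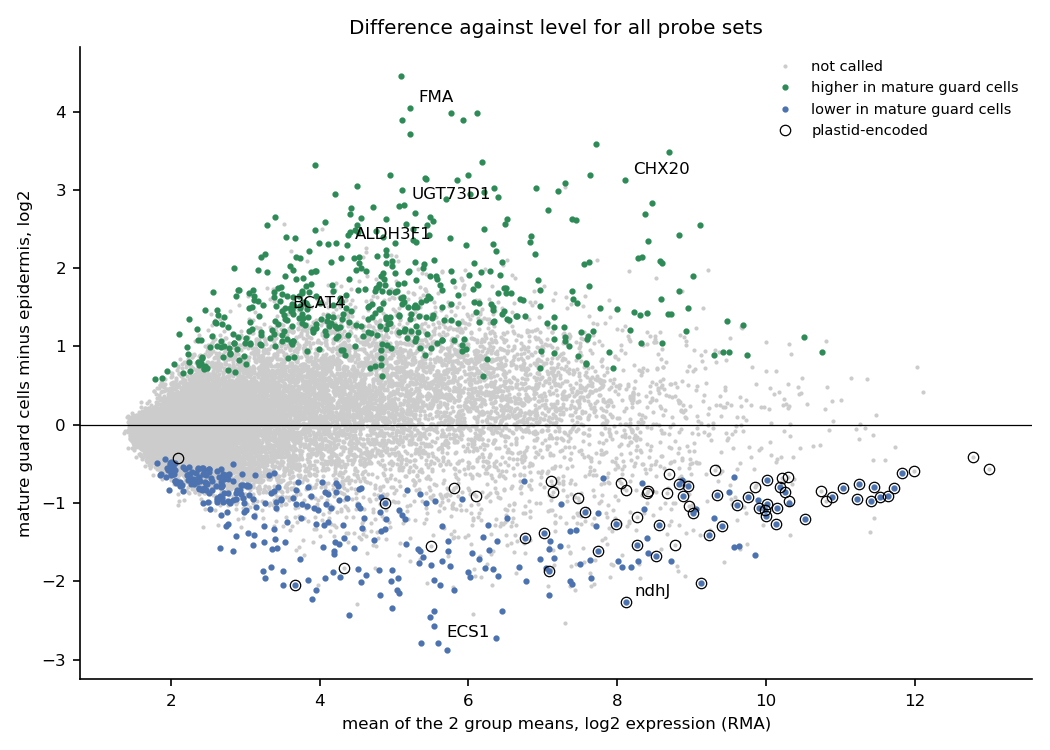
Each point is a probe set, with the mean of the group means (log2 expression) across and the difference between mature guard cells and epidermis (log2) upward. The 480 called higher reach 4.46, the 340 called lower reach -2.88, and the ringed plastid-encoded genes all lie below 0.

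The guard cell genes FAMA and CHX20 were higher in the sort labelled mature guard cells. FAMA, listed under the symbol FMA, was at 6.91, 7.51 and 7.29 in the 3 mature arrays and at 3.38, 3.15 and 3.02 in the 3 epidermis arrays. The groups lay far apart, with a mean of 7.23 ± 0.30 (SD, n = 3) against 3.19 ± 0.18. The difference of 4.05 (SE 0.23) is 16.6-fold, with a limma adjusted p of 5.49e-06, and was the greatest of any probe set with a listed gene. FAMA was at 2.29 ± 0.38 in early, 6.64 ± 0.25 in middle and 10.11 ± 0.26 in late precursors, whose reporter carries FAMA sequence that may add to that last value.

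CHX20, a cation/proton exchanger of endomembranes that acts in stomatal opening, was at 9.70, 9.39 and 9.90 in mature guard cells and at 6.41, 6.68 and 6.52 in epidermis. It was 8.72-fold higher (difference 3.12, SE 0.44, limma adjusted p = 0.0025), and late precursors stood at 10.03 ± 0.13. AT1G22690, a locus of the guard cell list, was at 9.04, 9.24 and 8.16 against 5.54, 6.31 and 5.48. These groups do not overlap, yet its difference of 3.04 had an SE of 1.02 and did not pass the test (limma adjusted p = 0.117). In early precursors, which share the estimate of the spread, it varied from array to array (4.0 ± 2.6). It passed without the early precursor arrays (adjusted p = 0.0138) and in the fit of the 6 arrays (adjusted p = 0.0151).

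The guard cell list names 43 genes of transport and identity, of which 7 were measured. FAMA and CHX20 were higher and 0 were lower, with a median difference of 0.46, against -0.08 over the 12663 genes taken by their brightest probe set, of which 3.48% were called in either direction and 1.86% as higher. The loci AT3G01490, AT5G50000 and AT4G18950 differed by 0.11, 0.28 and -0.09 and did not pass. AT4G14480 was near background in both populations, at 2.41 ± 0.15 and 1.95 ± 0.31.

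Regulators of earlier steps were near background in both populations. SPCH, which starts the lineage, was at 2.52 ± 0.31 in mature guard cells and 2.27 ± 0.20 in epidermis, against 9.11 ± 0.10 in early precursors, whose reporter carries SPCH sequence. MUTE, which ends the asymmetric divisions, was at 1.66 ± 0.26 and 1.60 ± 0.14. ATBRXL2, a gene of the BREVIS RADIX family, was at 2.57 ± 0.29 and 2.32 ± 0.56. STOMAGEN, a secreted peptide that mesophyll makes and that promotes stomata, was at 1.99, 2.06 and 1.74 in mature guard cells and 2.34, 3.21 and 2.53 in epidermis. It passed only narrowly, at least 1.12-fold lower, or 1.01-fold with 2.68 as the floor (limma adjusted p = 0.0486). That call was lost in 12 of 18 alternatives, among them leaving out any mature array, any late precursor array, or epidermis array 2 or 3 (adjusted p from 0.0568 to 0.129 in those). Of the 30 genes on the stomatal development list 5 were measured, 1 higher (FAMA) and 1 lower (STOMAGEN). Over all genes 1.86% were called higher and 1.62% lower.

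**Figure D2:**
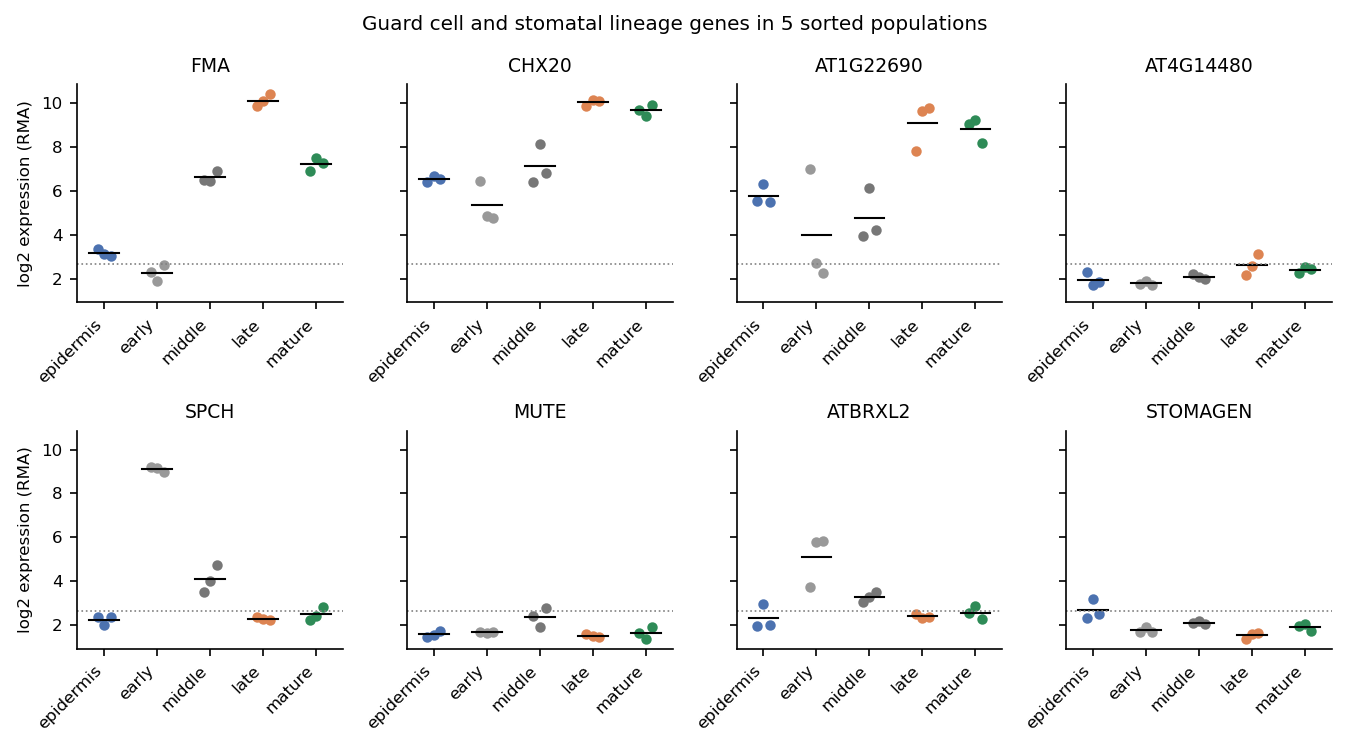
Each panel plots log2 expression of a gene in the 5 sorted populations, with a point per array, a bar at the mean, and a dotted line at the background level of 2.68. FMA and CHX20 were higher in mature guard cells than in epidermis, while SPCH, MUTE and ATBRXL2 lay near background in both.

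The 20 greatest rises with a listed gene ran from FAMA down to AT5G65240, which was at 7.48, 7.93 and 7.89 in mature guard cells and 5.42, 5.66 and 4.55 in epidermis (5.90-fold). Most are loci with no symbol in the reference, and no role is given to those. AT2G16630 was at 8.33, 8.03 and 7.97 against 3.66, 4.83 and 3.90, or 15.8-fold higher (difference 3.98, SE 0.42, limma adjusted p = 0.000457). AT1G33811 was 14.8-fold higher (3.89, SE 0.44) and AT2G22320 was 13.2-fold higher (3.72, SE 0.38). Both were at levels near 7 in mature guard cells, with means of 7.05 ± 0.10 and 7.08 ± 0.35. AT1G78170 was near background in epidermis and at least 7.78-fold higher in mature guard cells. AT3G16670 was more variable, at 8.38, 6.50 and 7.35, but still 8.73-fold above a tight epidermis mean of 4.28 ± 0.05.

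Of these 20 rises, 18 passed in every alternative run. AT5G17980 (6.17-fold) did not pass without mature array 1 or 2 or epidermis array 1 or 3 (adjusted p from 0.0517 to 0.0964). AT3G28600 (6.50-fold) did not pass in 10 alternatives. These include leaving out any mature array, epidermis array 3 or any late precursor array (adjusted p from 0.0534 to 0.135), and its epidermis values of 4.78, 4.65 and 2.37 spread widely.

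**Figure D3:**
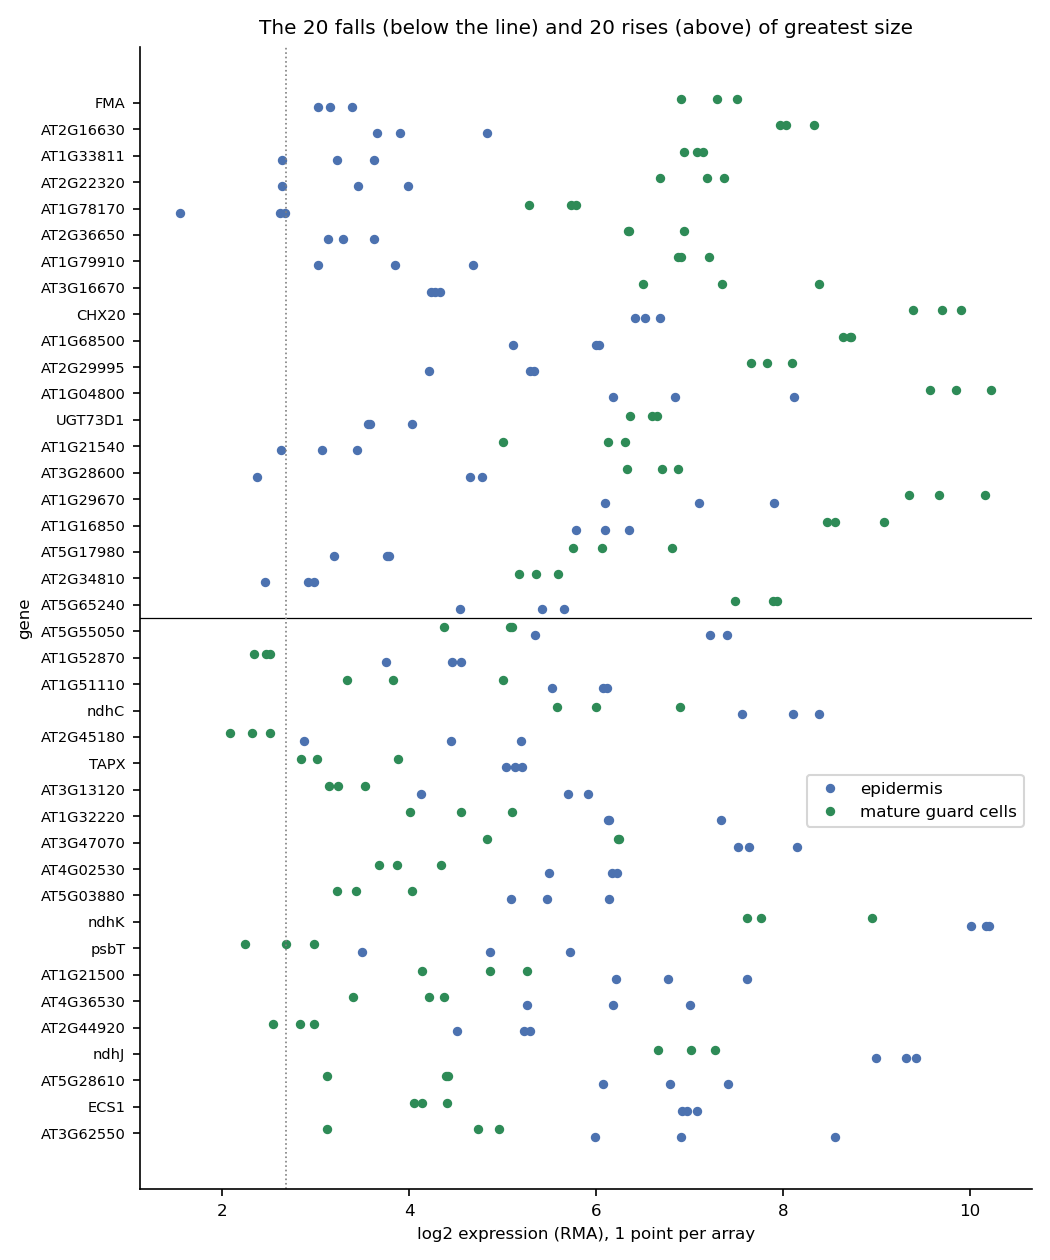
Each row is a gene and each point an array, with log2 expression across and a dotted line at the background level of 2.68. Above the solid line are the 20 greatest rises with a listed gene and below it the 20 greatest falls, and in each row the 3 green mature points lie apart from the 3 blue epidermis points.

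Rises with a symbol numbered 40, and genes among them outside the lists are described here after their values were seen. UGT73D1, a UDP-glycosyltransferase of the family that attaches sugars to small molecules, was at 6.59, 6.64 and 6.36 in mature guard cells and 3.56, 4.03 and 3.58 in epidermis. That is a 7.01-fold difference (2.81, SE 0.29, limma adjusted p = 0.000419). APK1A, a protein kinase, was at 8.22, 8.14 and 7.61 against 6.01, 6.01 and 4.96, or 5.05-fold higher. SBTI1.1, a subtilisin-like protease, was near background in epidermis (2.54, 2.66 and 2.65) and at 4.66, 4.68 and 4.94 in mature guard cells, at least 4.37-fold higher. SGP1, a small GTP-binding protein, was 3.84-fold higher (difference 1.94, SE 0.31).

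Other genes with a symbol differed less or varied more. HAT3.1, a homeodomain protein, was 2.40-fold higher and AZG1, a purine transporter, 2.2-fold higher. GFAT, of hexosamine synthesis, was at least 1.84-fold higher, and HIS1-3, a drought-inducible linker histone, at least 1.09-fold higher, or 1.02-fold with 2.68 as the floor. These genes and UGT73D1, APK1A, SBTI1.1 and SGP1 were among the 16 of 40 that passed in every alternative that tested them. NET4B, of the actin-binding NETWORKED family, was at 9.26, 9.30 and 9.64 against 7.79, 7.70 and 6.30, or 4.40-fold higher. It did not pass without mature array 1 or 2 or epidermis array 3 (adjusted p from 0.0524 to 0.0589). PDF1.4, a defensin, spread from 5.28 to 7.47 in mature guard cells. It was 5.03-fold higher, a call lost in 11 of 19 alternatives, among them leaving out mature array 1 or 2, any epidermis array, or late precursor array 2 or 3 (adjusted p from 0.0559 to 0.141).

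Aldehyde dehydrogenases, which oxidise reactive aldehydes formed under drought and oxidative stress, gave 2 higher members of 8 and 0 lower, where 1.86% of all genes were called higher and 1.62% lower. ALDH3F1 was at 5.68, 5.28 and 5.57 in mature guard cells and 3.52, 3.13 and 3.02 in epidermis, or 4.89-fold higher (2.29, SE 0.36, limma adjusted p = 0.00496). ALDH7B4 was at 8.85, 8.60 and 8.06 against 6.84, 6.98 and 6.37, or 3.42-fold higher (1.77, SE 0.28, adjusted p = 0.00453). Both passed in every alternative. The median over the 8 was 0.17, and -0.04 after cyclic loess, so the family as a whole showed no direction that held under another scaling. On the dehydration and cold list, 6 of 22 were measured, and the only 2 that passed were these same dehydrogenases. The dehydrins LTI30 (1.24, adjusted p = 0.168) and COR47 (0.12, adjusted p = 0.868) did not pass, at high levels in both populations.

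Glutathione transferases, which conjugate glutathione to electrophiles, gave 1 higher and 1 lower of 14, against 3.48% of all genes called in either direction. GSTU25 was at 7.94, 7.89 and 6.60 against 5.38, 5.63 and 4.75, or 4.66-fold higher (2.22, SE 0.38, limma adjusted p = 0.0082), in every alternative. GSTU16 was 1.92-fold lower (adjusted p = 0.0302), which did not hold without mature array 1 or 2, epidermis array 1 or 3 or late precursor array 2 (adjusted p from 0.0506 to 0.121). Nor did GSTU16 pass in the fit of the 6 arrays or with a trended and robust prior (limma adjusted p = 0.0695 and 0.0591). UDP-glycosyltransferases gave 2 higher and 2 lower of 48, with a median of -0.22. With so few calls, neither family's count is read as a result about the family. Besides UGT73D1 these were UGT87A2 (2.67-fold higher, adjusted p = 0.0309), UGT72E2, which glucosylates monolignols (1.88-fold lower, adjusted p = 0.0481), and UGT76C1, which glucosylates cytokinins. UGT76C1 was near background in both populations, so no fold is given. UGT76C1 did not pass without mature array 1 (adjusted p = 0.0572). UGT87A2 did not pass without any mature array, epidermis array 1 or 3 or late precursor array 2 (adjusted p from 0.05 to 0.111). UGT72E2 did not pass without any mature or epidermis array or late precursor array 2 or 3 (adjusted p from 0.0564 to 0.159). In the fit of the 6 arrays UGT76C1 and UGT72E2 did not pass (limma adjusted p = 0.0649 and 0.0712). UGT87A2 did not pass after cyclic loess (limma adjusted p = 0.0957).

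Expansins and xyloglucan endotransglucosylases, which loosen and rebuild cell walls, gave 2 higher and 1 lower of 28 (3.48% of all genes were called in either direction), with 12 near background in both populations and a median of 0.02. EXPA16, an alpha-expansin, was at 5.94, 6.05 and 4.94 in mature guard cells and 3.53, 2.97 and 3.04 in epidermis. It was 5.50-fold higher (2.46, SE 0.30, limma adjusted p = 0.00113) and passed in every alternative. EXPA18, another alpha-expansin, went the other way, near background in mature guard cells (2.02, 2.13 and 2.16) and at 3.66, 2.57 and 3.54 in epidermis, at least 1.66-fold lower. That call was lost without mature array 1 or 2 or epidermis array 3 (adjusted p from 0.0518 to 0.0724). EXPA18 also did not pass in the fit of the 6 arrays (limma adjusted p = 0.0965). EXLA2, an expansin-like gene, was 2.97-fold higher (adjusted p = 0.0374), which did not hold without mature array 1 or 2, epidermis array 2 or 3 or late precursor array 2 or 3 (adjusted p from 0.0565 to 0.144). Nor did EXLA2 pass in the fit of the 6 arrays or after cyclic loess (limma adjusted p = 0.101 and 0.0851). The 5 pectin methylesterases and lyases held 0 calls.

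Hormone and transcription factor genes gave few calls, where 3.48% of all genes were called in either direction. MYC3, a bHLH factor of jasmonate responses, was at 5.88, 5.76 and 6.52 against 4.88, 4.74 and 3.96, or 2.88-fold higher (1.53, SE 0.32, limma adjusted p = 0.0223). It was 1 of 4 measured jasmonate genes, and its call was lost without mature array 1 or 3 or epidermis array 3 (adjusted p from 0.0603 to 0.093). ZAP1, a WRKY factor, was 2.83-fold higher and lost its call without mature array 3 or epidermis array 3 (adjusted p = 0.0513 and 0.0534). After cyclic loess neither MYC3 nor ZAP1 passed (adjusted p = 0.082 and 0.0514). Neither passed in the fit of the 6 arrays (limma adjusted p = 0.0603 and 0.0847). BIM1, a bHLH factor of brassinosteroid signalling, was 2.86-fold higher and lost its call without mature array 1 or 2 or epidermis array 1 or 3 (adjusted p from 0.0528 to 0.0871). The 6 genes named WRKY held 0 calls, and no member of the abscisic acid list has a probe set listed to it in the annotation used, so that list was not analysed here. The 8 calcium sensors and kinases had a median of -0.27, against -0.08 over all genes, and gave 1 higher and 1 lower. CML23 was higher, at least 1.3-fold, and CML42, a calmodulin-like protein of trichome branching, was 2.80-fold lower. Over all genes 1.86% were called higher and 1.62% lower. CML23 did not pass without mature array 1 or 2 or epidermis array 2 or 3 (adjusted p from 0.0587 to 0.1). Its call was also lost in the fit of the 6 arrays (limma adjusted p = 0.0688). CML42 did not pass without mature array 1 or 3 or epidermis array 1 or 3 (adjusted p from 0.0538 to 0.093).

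Among the transport lists CHX20 was the only call, while AZG1, described above, lies outside them. Of 14 potassium, anion and cation transporters, 12 were near background in both populations. Of 17 sugar transporters, 14 were near background in both and 0 passed. The 3 vacuolar proton pump subunits differed by -0.09 to -0.30 and did not pass. Of 10 autophagy genes named ATG or APG, 9 lay above 0, as did 5142 of all 12663 genes. The median of the 10 was 0.51, and 0.30 after cyclic loess, against -0.08 over all genes. Only ATG8B, a ubiquitin-like protein of the autophagosome, passed as higher, where 1.86% of all genes did. It was at 4.70, 3.04 and 2.50 against a near-background 1.72, 1.59 and 1.84, at least 1.78-fold higher (adjusted p = 0.0448). This call was lost in 11 of 18 alternatives, among them leaving out mature array 1 or 2, any epidermis array or any late precursor array (adjusted p from 0.0503 to 0.112). Mitochondrial-encoded genes held 0 calls among 10, with a median of -0.25.

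Genes of the plastid genome were lower as a group. All 69 measured genes were below 0, with a median of -0.92, against -0.08 over all genes. Of these, 42 passed as lower and 0 as higher, against a background of 1.62% of genes called lower. In 66 of the 69 the 3 mature arrays lay below the 3 epidermis arrays. Over all probe sets, 29.8% had the arrays of one group wholly above the other, counting both directions. The 42 ran from -0.62 at psbA to -2.26 at ndhJ, and 16 passed in every alternative that tested them. The call of psbA was lost in 13 of 19, among them leaving out any mature or epidermis array or late precursor array 2 (adjusted p from 0.0578 to 0.133). Mean levels over the 69 genes were 9.37, 9.65 and 9.70 in the epidermis arrays when ordered by level, and 8.34, 8.49 and 8.76 in the mature arrays, with no overlap. The count of 42 fell to 24 without mature array 1, to 23 without mature array 2 and to 22 without epidermis array 3, and to 26 with a trended and robust prior variance. Plastid genes are transcribed in long shared units, so they are not independent of each other.

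The subunits of the NDH complex, which cycles electrons around photosystem I, had the lowest median of the complexes, -1.43, with 9 of 10 lower. The gene ndhJ was at 7.01, 6.67 and 7.27 in mature guard cells and 9.0, 9.43 and 9.32 in epidermis, or 4.80-fold lower (-2.26, SE 0.28, limma adjusted p = 0.000984). Its neighbours in the same transcription unit were also lower. The gene ndhK had means of 8.11 ± 0.73 against 10.13 ± 0.11 (SD, n = 3), or 4.05-fold lower, and ndhC was 3.63-fold lower, a call that was lost only in the fit of the 6 arrays (adjusted p = 0.0575). The exception, ndhF, was near background in both populations and differed by -0.42.

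All 6 ATP synthase genes passed, with a median of -0.96, as did 4 of 6 genes of the cytochrome b6f complex, which passes electrons between the photosystems (median -1.27). Among the latter, petD was at 9.41, 9.35 and 9.75 against 10.53, 10.82 and 10.95, or 2.40-fold lower (adjusted p = 0.00507). Photosystem II gave 9 of 15 and photosystem I 2 of 5. The photosystem I core gene psaA was at 9.77, 9.86 and 10.12 against 11.06, 11.23 and 11.07, or 2.3-fold lower (-1.2, SE 0.15, adjusted p = 0.00132). The photosystem II gene psbN was at 8.85, 8.66 and 8.78 against 10.19, 10.04 and 9.93, or 2.45-fold lower.

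Among genes for plastid gene expression, 5 of 15 for ribosomal proteins (median -0.90) and 1 of 4 for the RNA polymerase (median -0.75) passed, and differences between the complexes were not tested. Over the 69 plastid genes, those at lower levels in epidermis tended to fall more (Spearman rho = 0.32). How far the medians of the complexes follow level was not tested. Some photosynthesis genes did not pass either. The large Rubisco subunit gene rbcL was at 12.55, 12.72 and 12.86 against 13.16, 13.30 and 13.35, a difference of -0.56 that did not pass (adjusted p = 0.0671), and psbF was at -0.41 (adjusted p = 0.12). Without the early precursor arrays rbcL passed (limma adjusted p = 0.0464). The rbcL levels lay near the top of the value range, which reached 13.35.

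**Figure D4:**
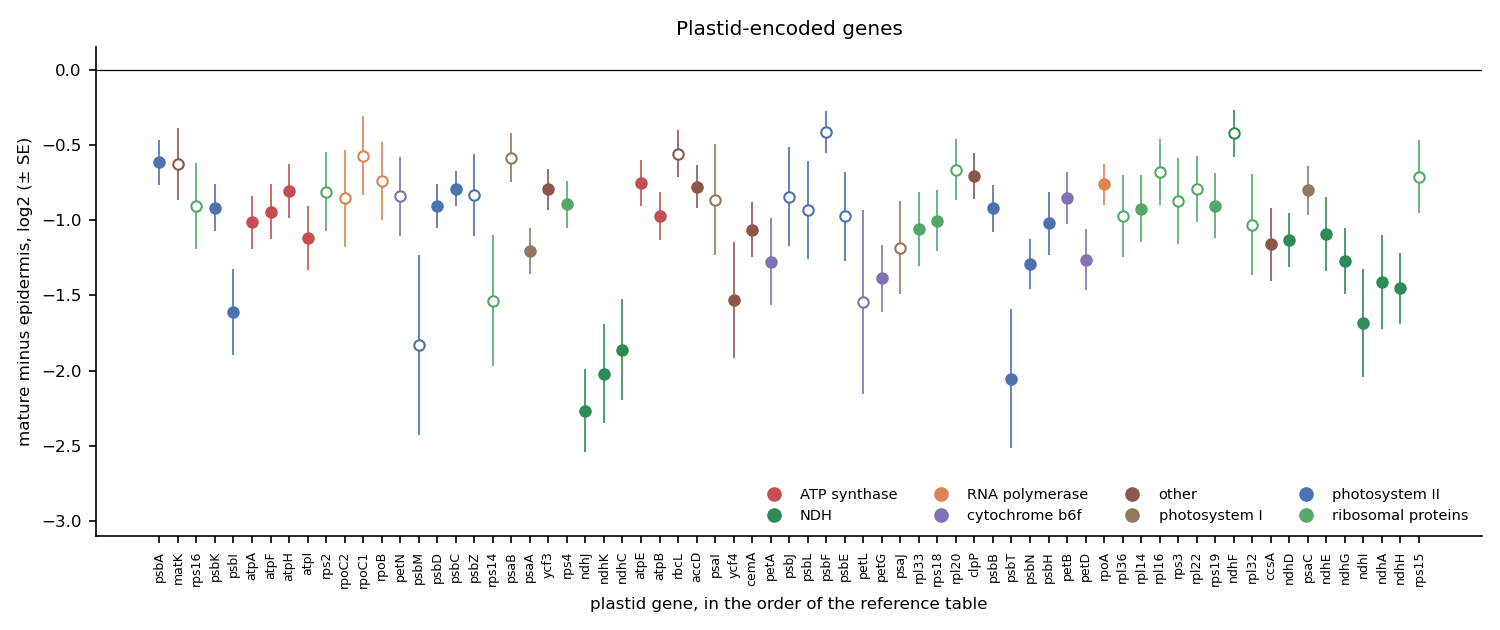
Each point is a plastid-encoded gene, in reference order across, with the log2 difference of mature guard cells from epidermis upward, a bar of 1 SE, and colour for the complex. Filled points passed the test (42 of 69), all points lie below 0, and ndhJ at -2.26 is the lowest.

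Nuclear genes of photosynthesis lay below 0 too, but few passed. All 7 measured genes of the light reactions were below 0, with a median of -1.58. PSBW, a small photosystem II subunit, was the only call, where 1.62% of all genes were called lower. It was at 8.43, 8.52 and 9.16 against 9.58, 9.80 and 10.30, or 2.28-fold lower (limma adjusted p = 0.0498). That call was lost in 11 of 19 alternatives, among them leaving out mature array 1 or 2, any epidermis array or late precursor array 2 (adjusted p from 0.0606 to 0.178). PSAE-1, a photosystem I subunit, was at -1.58 (adjusted p = 0.0741) and LHCB4.1, an antenna protein, at -1.28 (adjusted p = 0.0831). Called members of the 7 ranged from 0 to 7 over the alternatives, with all 7 called under array weights. The 5 genes of the Calvin cycle and photorespiration ran from -1.75 to -2.03 and did not pass. Called members of the 5 ranged from 0 to 5 over the alternatives, with all 5 called as lower under array weights and without the early precursor arrays. Among them SBPASE was at 6.48, 6.18 and 7.37 against 8.46, 8.5 and 9.15 (adjusted p = 0.114), and RCA, Rubisco activase, was at -1.87 (adjusted p = 0.106).

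These nuclear genes were listed as mesophyll markers, and mesophyll lies outside the ML1 domain. Guard cells hold chloroplasts too, so the genes are not exclusive to mesophyll. The mean level of the light reaction genes was 8.80, 8.95 and 9.94 in the epidermis arrays when ordered by level. In the mature arrays it was 7.31, 7.70 and 8.09. For the Calvin cycle it was 9.21, 9.21 and 9.81 against 7.14, 7.41 and 8.07. Median array means in early, middle and late precursors were 7.51, 7.32 and 7.31 for the light reactions. For the Calvin cycle they were 6.64, 7.08 and 7.22. A level below that of epidermis was therefore not particular to mature guard cells. None of these 12 genes was near background in either population. The plastid genes and these nuclear genes all lay below 0 between mature guard cells and epidermis. Whether either sort held mesophyll RNA was not tested.

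Few marker genes of other cell types have a probe set listed to them in the annotation used. The 3 trichome genes (TRY, SIM and GIS) were near background in both populations, and so were the single cuticle gene measured, WSD1, at 1.79 ± 0.10 in epidermis, and the single vascular gene. The epidermal label was therefore not checked on its other defining genes here. Cell cycle genes held 0 calls among 4, with 3 near background in both. SHN3, an AP2 factor of cuticle formation, was described after its values were seen. It was at least 1.2-fold lower, or 1.08-fold with 2.68 as the floor, in mature guard cells (2.18, 2.22 and 2.06 against 2.59, 3.02 and 2.77), a call lost without any mature array or epidermis array 2 or 3 (adjusted p from 0.0638 to 0.081).

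Among the 20 greatest falls with a listed gene, 7 passed in every alternative run. In the fit of the 6 arrays 11 of these 20 did not pass, against 1 of the 20 greatest rises. ECS1 was at 4.13, 4.41 and 4.05 in mature guard cells and 6.97, 6.92 and 7.08 in epidermis, or 6.92-fold lower (-2.79, SE 0.42, limma adjusted p = 0.0038). Its arrays were tight in both groups, and late precursors stood lower still, at 2.63 ± 0.57. The other stable falls were ndhJ, ndhK, AT2G44920 (4.67-fold lower), AT5G03880 (4.01-fold), AT4G02530 (4.0-fold) and AT1G52870 (at least 3.30-fold). The greatest fall, at AT3G62550, was 7.36-fold, with wide values of 3.12, 4.73 and 4.96 against 5.99, 6.91 and 8.55. It did not pass without mature array 1 (adjusted p = 0.0877) or epidermis array 3 (adjusted p = 0.0782). Nor did AT3G62550 pass in the fit of the 6 arrays (limma adjusted p = 0.0988). AT5G28610, 6.88-fold lower, did not pass without mature array 1 (adjusted p = 0.0759) or epidermis array 1 (adjusted p = 0.0571).

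Of the 15 falls with a symbol outside the plastid genome, 1 passed in every alternative that tested it. Another 3, all for chloroplast proteins, are described here, chosen after their values were seen. Other such falls, among them PUB26, JAL33 and sks16, are not described. TAPX, the ascorbate peroxidase of thylakoids, was at 3.02, 2.84 and 3.87 against 5.20, 5.04 and 5.13, or 3.68-fold lower (-1.88, SE 0.34, limma adjusted p = 0.011). TRXF2, a chloroplast thioredoxin that activates Calvin cycle enzymes, was 2.77-fold lower. NdhL, a nuclear-encoded NDH subunit, was near background in mature guard cells and at least 2.29-fold lower. TAPX lost its call without mature array 1 or 2 (adjusted p = 0.0529 and 0.0525), and TRXF2 without mature array 2 or epidermis array 3 (adjusted p = 0.0779 and 0.0653). NdhL lost its call without any mature array (adjusted p from 0.0513 to 0.114).

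Of the 480 higher probe sets, 210 (43.75%) had their highest mean in late precursors and 184 (38.3%) were highest in mature guard cells. Over all probe sets these shares were 16.7% and 11.2%. These counts are a description only, since the probe sets were chosen as higher in mature guard cells than in epidermis. Over the plastid genes the median difference of mature guard cells from late precursors was 0.10, between -0.32 and 0.70, and 0 of 69 passed. CHX20 differed by -0.37 (SE 0.44), UGT73D1 by -0.76 (SE 0.29) and EXPA16 by 0.38 (SE 0.30) from late precursors, and none of these passed.

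The direct comparison with late precursors, which shares the mature arrays, called 29 probe sets (0.138%), 14 higher (0.0668%) and 15 lower (0.0716%). A gene is listed for 16. The count rested on few arrays. It was 3 without late precursor array 2, 3 without late precursor array 3 and 69 without late precursor array 1, and 18 without mature array 2, 9 without mature array 3 and 19 without epidermis array 1. In the fit of the 6 arrays of these groups limma called 0, with 2202 at an unadjusted p under 0.05, against 1402 in the fit of 15. No other tool was run. Averaging late precursor arrays 2 and 3 left 3 calls.

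FAMA was 7.36-fold lower in mature guard cells than in late precursors (9.87, 10.08 and 10.39), a difference of -2.88 (SE 0.23, limma adjusted p = 0.000283). On this probe set, transcripts of the reporter in late precursors cannot be told apart from native FAMA. BCAT4, which starts methionine chain elongation for aliphatic glucosinolates, was at 4.24, 4.13 and 4.31 in mature guard cells and at 2.77, 2.40 and 2.36 in late precursors. It was at least 3.09-fold higher (1.72, SE 0.14, adjusted p = 0.000283), and 2.65-fold higher than in epidermis (2.85, 2.67 and 2.94). For FAMA and BCAT4 the call against late precursors was lost only in the fit of the 6 arrays (adjusted p = 0.0691 for each).

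BCAT4 was also low in the other precursors, with a mean of 2.47 in early and 2.77 in middle precursors. Of 5 measured glucosinolate genes, 3 lay above 0 against epidermis and only BCAT4 passed as higher, where 1.86% of all genes did. GTR1, a glucosinolate transporter, was at 8.92, 8.31 and 8.67 in mature guard cells and 8.65, 8.84 and 8.77 in epidermis, which overlap. It was 2.40-fold above late precursors (7.54, 7.32 and 7.25, adjusted p = 0.0457), a call lost in 14 of 19 alternatives. Those include leaving out any mature or epidermis array or late precursor array 2 or 3 (adjusted p from 0.0521 to 0.256). GTR2, its close relative, differed by 0.90 from epidermis and 1.31 from late precursors and passed neither test.

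CLE41, a secreted peptide known from the vascular cambium, had the same profile at a lower level. It was at 3.89, 3.24 and 2.95 in mature guard cells and near background elsewhere, at 1.79, 1.96 and 1.92 in epidermis and 1.97, 1.93 and 1.99 in late precursors. It was at least 1.72-fold above epidermis (1.47, SE 0.19, limma adjusted p = 0.00145) and at least 1.78-fold above late precursors (1.39, SE 0.19, adjusted p = 0.017). AT1G35200 was at 5.21, 4.61 and 3.89 and at least 3.97-fold above epidermis and at least 3.99-fold above late precursors. AT1G78110 was at 5.16, 4.51 and 4.44, or 3.43-fold above epidermis and 3.32-fold above late precursors. The call against late precursors was lost for these 3 genes without late precursor array 2 (adjusted p = 0.119 for each) or array 3 (adjusted p = 0.0931 for each). The calls against epidermis held in every alternative that tested them.

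The other calls with a listed gene were less stable, each lost in 6 to 14 alternatives. AT4G39190, AT1G43910 and AT1G21790 were higher than in both populations, by 1.28, 1.26 and 1.06 against late precursors. Against epidermis, AT1G21790 did not pass without mature array 2 (adjusted p = 0.0507), nor AT1G43910 without mature array 2 or 3 or epidermis array 1 or 3 (adjusted p from 0.0568 to 0.0818). AT1G21790 also failed there after cyclic loess, with a trended and robust prior and in the 6-array fit (limma adjusted p = 0.116, 0.0871 and 0.0517). AT1G15010 (1.57) and AT3G56880 (1.07) were higher than in late precursors but not than in epidermis. AT1G19160 (-1.34), AT1G68490 (-1.27), AT3G03610 (-1.03), AT3G01980 (-1.38) and AT1G71140 (-1.11) were lower, and each was near background in mature guard cells. Without late precursor array 2, 14 of the 16 calls with a listed gene were lost, and the same number without late precursor array 3. Without mature array 1, 2 or 3, 7, 10 and 11 were lost, without epidermis array 1, 2 or 3, 6, 6 and 5. Leaving out late precursor array 1 lost 2.

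**Figure D5:**
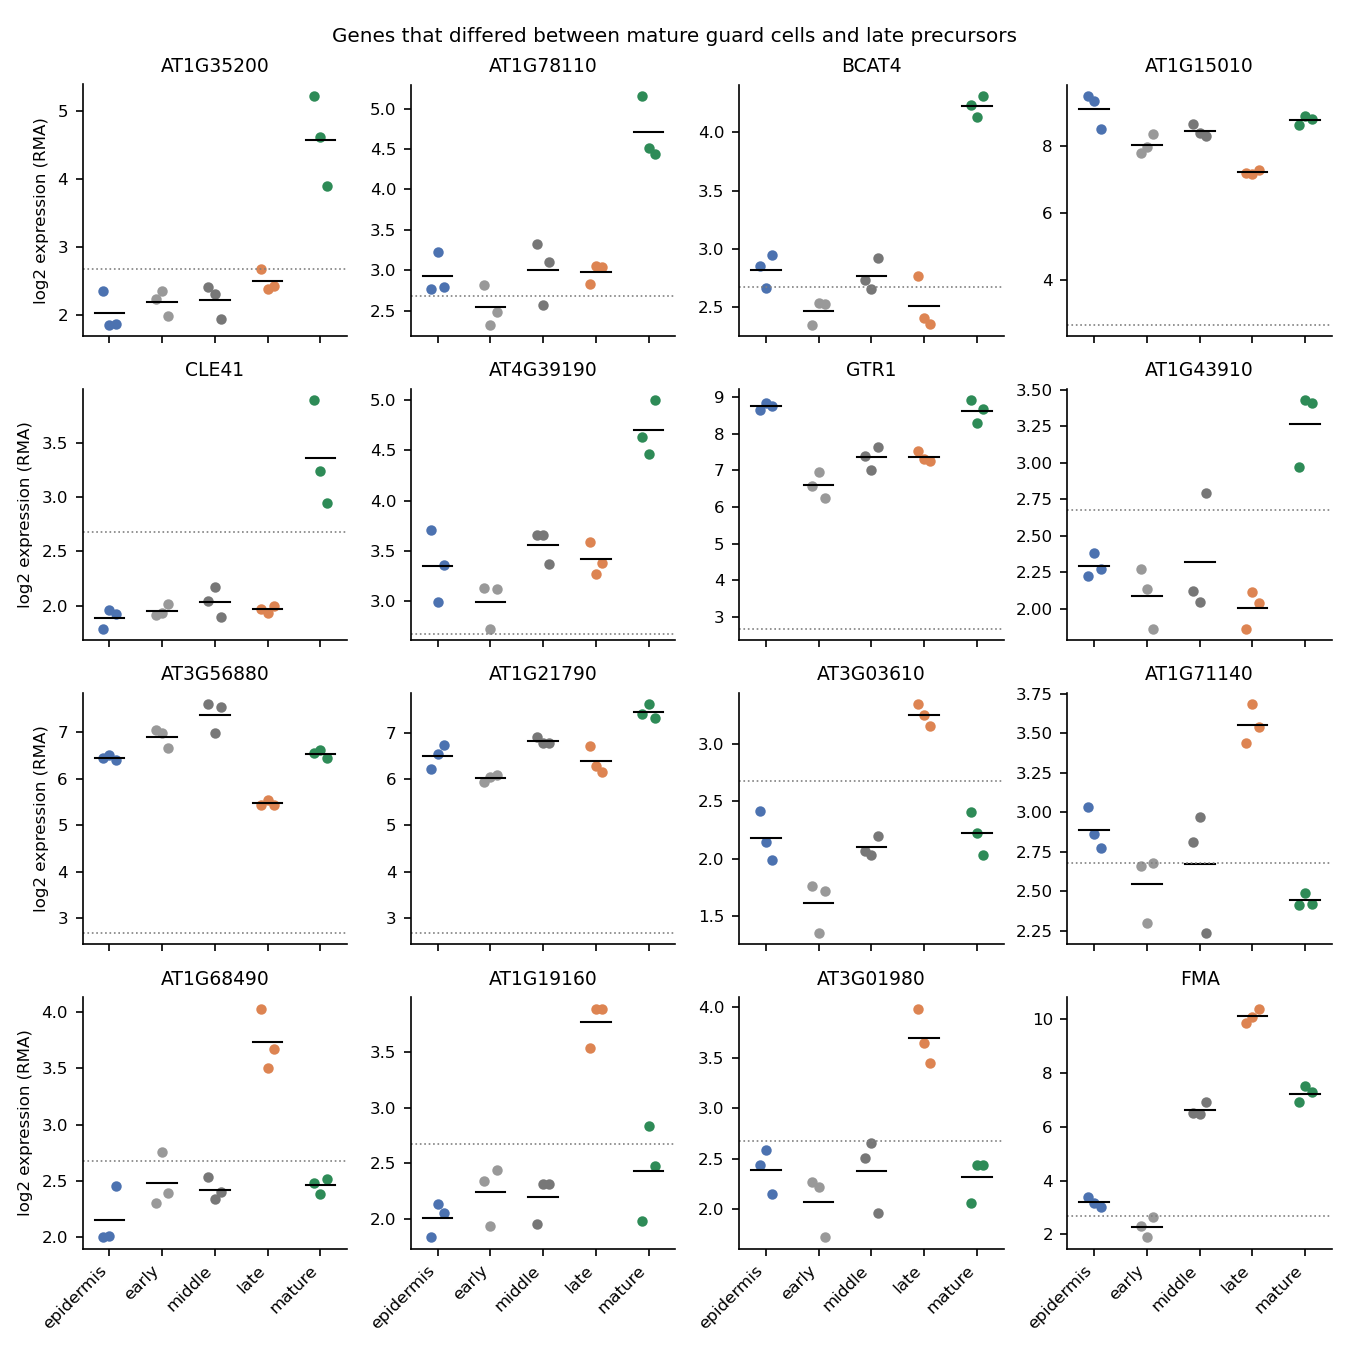
Each panel plots log2 expression in the 5 populations of a gene that passed between mature guard cells and late precursors, with a point per array, a bar at the mean and a dotted line at 2.68. BCAT4, CLE41 and AT1G35200 are highest in mature guard cells, FMA is highest in late precursors, and panels have their own vertical scales.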

How the data were processed

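The deposited log2 expression values are the authors' RMA output (affy package), as the submitters' processing notes record; no version or genome build is given in the sources used here, and the log base is inferred from RMA and the value range (1.11 to 13.4). Each array gives 1 value per probe set. The platform annotation lists 1 gene for 12783 of 20956 probe sets, several for 37 and none for 8136. The reference gene table (TAIR10.1) holds 12720 of these and gives 1538 a symbol. With no control probe sets in the table, background was set at the highest array median, 2.68.

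All 15 arrays entered 1 limma fit (limma 3.58.1, R 4.3.3) with a mean per group, 10 residual degrees of freedom, two-sided moderated tests and Benjamini-Hochberg adjustment over all probe sets. The fit was tested on simulated data with independent normal errors, which cannot show how far the calls in these data hold. Errors of differences are SE from this fit. Replicate numbers were not used to pair the arrays.

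Named genes were the 20 greatest rises and 20 greatest falls that passed with non-overlapping arrays and 1 listed gene, up to 4 rises and 4 falls of each list, the markers and stomatal regulators, and list members near the median. The 13 lists by locus (399 loci, 50 measured) and 23 by gene name are given as counts and medians, for a gene's brightest probe set. The comparison, lists and background level were chosen with earlier results of these data known. In 19 alternatives the arrays in the fit, weights, scaling, filter, prior variance and replicate block were changed or an array was left out. The precision is limited by 3 arrays per group.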

Additional observations from a re-analysis of the deposited data

Results flagged for a closer look

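For 8 genes that differed between mature guard cells and epidermis, the test against late precursors also found a difference. That test called 0.138% of all probe sets. FAMA (symbol FMA) was lower in mature guard cells than in late precursors by a log2 difference of -2.88, with GFP-FAMA present in the late sort. The other 7 were higher in mature guard cells, BCAT4 by 1.72, AT1G35200 by 2.08, AT1G78110 by 1.73, CLE41 by 1.39, AT4G39190 by 1.28, AT1G43910 by 1.26 and AT1G21790 by 1.06. In the fit of the 6 arrays of these populations limma called none of the 8. Without late precursor array 2 or 3, the call was lost for all of them but FAMA and BCAT4.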

How the results depend on the processing

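For the count of 820 probe sets between mature guard cells and epidermis, the fit of the 6 arrays alone gave 533, leaving out the early precursor arrays gave 1944 and array weights gave 1468. Leaving out an array gave 309 to 935. For the count of 29 against late precursors, the 6-array fit gave 0, array weights 1008, a weight per group 88, removing dim probe sets 14, the replicate block 14 and averaging late precursor arrays 2 and 3 gave 3. Leaving out an array gave 3 to 69. For the 42 lower plastid genes, a trended and robust prior gave 26 and leaving out an array 22 to 46, with all other alternatives within 1.5 times. The causes were not tested. Blocking on the replicate number gave 728 calls against epidermis, within 1.5 times of 820. Same-numbered arrays shared deviations only weakly (r = 0.06, 0.14 and 0.17). Differently numbered arrays gave lower values, from -0.16 to 0.03, so a weak pairing by number is possible. The reported fit does not take numbers as pairs. Of 88 named genes, the calls lost ran from 0 without the early precursor arrays and under array weights to 35 without epidermis array 3, and 32 were lost in the 6-array fit. No named difference changed sign after passing the test. Signal near background limits 93 of the rises and 140 of the falls.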
